A study of Mus musculus with 2 samples.

Results

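Matrix metalloproteinases and their tissue inhibitors were described here through 5 genes, Mmp2, Mmp14, Timp1, Timp2 and Timp3, in stromal cells of the mouse colon and small intestine. The genes were taken by name, and all 5 were listed in both tissues, among 16381 genes listed for the colon, 18262 for the small intestine and 16098 for both. Every value below comes from counts of unique molecular identifiers (UMIs), each of which marks 1 captured RNA molecule.

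Matrix metalloproteinases are zinc enzymes that cut collagens, laminins, fibronectin and other proteins of the extracellular matrix. MMP2, also called gelatinase A, is secreted as an inactive precursor, and MMP14 (MT1-MMP) is a collagenase anchored in the cell membrane that activates it. TIMP proteins bind and block these enzymes, but TIMP2 also forms a bridge by which MMP14 captures the MMP2 precursor, so that it takes part in activation as well as in inhibition. TIMP1 is secreted and inhibits MMP14 poorly, whereas TIMP3 stays bound to the matrix and also inhibits several ADAM and ADAMTS proteases and binds the receptor VEGFR2 (gene Kdr).

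The study described the normal gut stroma with 1 droplet library of healthy, untreated colon and 1 of healthy, untreated small intestine, so no difference between them has a replicate check. Epithelium was stripped off, collagenase XI and dispase II were applied for 60 minutes to the colon and for 45 minutes to the small intestine, and viable CD45- CD326- cells were sorted. The labels give no number, sex, age or strain of animals, and the tissue and the digestion time cannot be told apart. The colon library held 6018 cells and 40684070 UMIs, the small intestinal one 9359 cells and 58134526 UMIs, and 21 cell barcodes occurred in both.

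A total of 6 cell labels of the authors had at least 50 cells in each tissue. They are CD81- fibroblasts (CD81- FBs; 3631 colon and 2823 small intestinal cells), trophocytes, which are CD81+ fibroblasts (875 and 1913), subepithelial myofibroblasts (SEMFs; 1105 and 1109), lymphatic endothelial cells (LECs; 217 and 2498), blood endothelial cells (BECs; 53 and 524) and smooth muscle cells (SMCs; 125 and 468). In both tissues LECs were highest for each of 6 lymphatic markers, and SMCs for each of 6 smooth muscle markers. Of 6 blood endothelial markers, 6 were highest in BECs of the colon and 4 in the small intestine, where the other 2 were highest in LECs. Trophocytes were highest for 4 of 5 trophocyte markers in both tissues, and SEMFs for 6 of 6 SEMF markers in the colon and 5 of 6 in the small intestine. The CD81- FB markers Adamdec1 and Edil3 were both highest in CD81- FBs of the colon, but in the small intestine their sum was 8459 CPM there and 9265 CPM in the SMC label. SMCs thus also held fibroblast markers. The summed level of 6 fibroblast markers (Dcn, Lum, Col1a1, Col1a2, Col3a1, Pdgfra) was 5997 CPM (UMIs of a gene per 1000000 UMIs of the label) in colon SMCs. It was 13775 CPM in small intestinal SMCs, against 17339 and 30896 CPM in pooled fibroblasts. Single markers stood at 13.6% to 73.3% of their fibroblast level in colon SMCs and at 17.1% to 58.1% in small intestinal SMCs. The source of this RNA was not tested.

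The promoter of Mmp14 and a stretch of Timp1 are shown. These genes gave the tissue ratios most alike (Mmp14) and least alike (Timp1) among the fibroblast subtypes. Immediate early factors, whose genes moved with Timp1 in SEMFs, are known to bind motifs of the Egr and AP-1 types. Whether such factors act on either gene was not tested. RefSeq promoter windows (GRCm38.p6; 250 bases before to 50 after a start site, 32851 windows) were matched for 4 of the 5 genes by symbol: Mmp14, Timp1, Timp2 and Timp3. Capitals mark, in Mmp14, the Egr-type motif GCGNGGGCG together with the GC box GGGCGG, which overlap, and in Timp1 the AP-1 variant TGAGTAA.
Mmp14, chr14:54431348-54431597, plus strand, the 250 bases before the start site: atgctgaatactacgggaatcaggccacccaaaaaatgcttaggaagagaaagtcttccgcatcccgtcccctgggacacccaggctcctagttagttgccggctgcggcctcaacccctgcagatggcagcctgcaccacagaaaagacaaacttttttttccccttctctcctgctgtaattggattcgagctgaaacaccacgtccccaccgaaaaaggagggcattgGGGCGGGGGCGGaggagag
Timp1, chrX:20870181-20870210, plus strand, in exon 1 and the 5′ untranslated region of transcript Timp1-202: cggtgggtggaTGAGTAAtgcgtccaggaa

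Each of 4 motifs was searched on both strands of each 300-base window, and a match is only a description of letters. The Egr-type motif occurred in 5.55% of all windows and, of the 4 genes, in Mmp14 alone, from base -17 counted from the start site, where it overlaps GC boxes from bases -19 and -13. The GC box was present in 35.7% of all windows and in all 4 genes. The AP-1 consensus TGANTCA, found in 7.81% of all windows, was in none of the 4. The variant TGAGTAA was in 2.68% of windows and, of the 4 genes, in Timp1 alone, from base 27 after the start site.

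By the GENCODE annotation of mm10, Mmp2 lies on chromosome 8 (92827291 to 92853420), Mmp14 on chromosome 14 (54431612 to 54445364), Timp1 on chromosome X (20870166 to 20874735) and Timp3 on chromosome 10 (86300372 to 86349506), all on the plus strand. Timp2 lies on the minus strand of chromosome 11 (118301069 to 118355740). Of the 5 genes, 3 share their locus with another gene. Timp1 lies within Syn1 and Timp3 within Syn3, synapsin genes on the opposite strand, and Timp2 overlaps Cep295nl on its own strand. Cell Ranger, named in the submitters' processing notes, by default counts only reads in a gene's own direction, but the settings used are not given in the sources used here. Whether reads were kept apart at Timp1 and Timp3 was therefore not tested, and strand cannot separate Timp2 from Cep295nl. Syn1 had 115 UMIs in the colon and 178 in the small intestine, Cep295nl had 98 and 95, and Syn3 had 1000 and 2018.

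Mmp2 was a fibroblast gene in both tissues, with SEMFs at the top. SEMFs had 440 CPM of Mmp2 in the colon (exact Poisson 95% interval 425 to 455) and 454 in the small intestine (437 to 470). CD81- FBs followed with 293 CPM in the colon and 394 in the small intestine, and trophocytes with 211 and 246. The 3 fibroblast subtypes stood in the same order in both tissues, with no overlap of neighbouring intervals. Fibroblasts held 98.9% of all Mmp2 UMIs in the colon library and 95.2% in the small intestinal one. They were 93.2% and 62.5% of the cells of these libraries. All Poisson, binomial and ratio intervals and floors here cover counting error only.

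At least 1 Mmp2 UMI was found in 79.6% of colon fibroblasts (exact Clopper-Pearson 95% interval 78.5 to 80.6; median depth 6707 UMIs) and 84.2% of small intestinal fibroblasts (83.3 to 85.2; median 7018). In LECs the share was 8.29% at a median of 4545 UMIs in the colon and 2.08% at 4117.5 UMIs in the small intestine. With every cell thinned to 2000 UMIs, the fibroblast shares were 43.7% and 48.0% and the LEC shares 1.84% and 0.766%. The contrast between fibroblasts and lymphatic cells remained at equal depth.

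In LECs and colon BECs, Mmp2 moved with the fibroblast markers. In LECs its level was 38.5 CPM (colon) and 10.97 CPM (small intestine), which is 12.5% and 3.14% of the level in fibroblasts. The 6 fibroblast markers stood at a median of 10.4% and 2.61% of their fibroblast level in the same LECs. In colon BECs all 30 Mmp2 UMIs came from 4 of 53 cells, 16 of them from 1 cell. Those 4 cells had a median of 15687.5 UMIs and 15815 CPM of the fibroblast markers, against 3616 UMIs and 274 CPM in the other 49 cells. Small intestinal BECs differed, with Mmp2 at 24.6 CPM (54 UMIs), 7.04% of the fibroblast level, while the markers stood at a median of 1.30%. The 30 cells with Mmp2 there had 3176 CPM of the markers, against 183 CPM in the other 494.

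Mmp2 in the SMC label was at 63.4 CPM (colon) and 192 CPM (small intestine). In an alternative added after the values were seen, cells of the endothelial and SMC labels with at least 5000 CPM of fibroblast markers were left out, which removed 64 of 125 SMCs and 19 of 217 LECs in the colon and 410 of 468 SMCs and 29 of 2498 LECs in the small intestine. Mmp2 was then at 25.0 and 39.7 CPM in SMCs, at 5.52 and 2.93 CPM in LECs and at 4.67 and 16.1 CPM in BECs. In the small intestine the SMC values thus rest mostly on cells rich in fibroblast markers. Whether such cells were doublets, carried free RNA or were fibroblasts given the SMC label was not tested.

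Mmp14, the membrane collagenase, was less restricted to fibroblasts. Its order was the same in both tissues, with CD81- FBs first (290 CPM in the colon, 174 in the small intestine), then SEMFs (257 and 142), trophocytes (234 and 129), SMCs (131 and 115), LECs (86.4 and 73.7) and BECs (70.5 and 18.2). The intervals of SEMFs and trophocytes overlapped in both tissues. So did those of LECs and BECs in the colon and of trophocytes and SMCs in the small intestine. The highest level was 4.12 times the lowest in the colon and 9.53 times in the small intestine.

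In LECs, Mmp14 stood at 31.5% of the fibroblast level in the colon and 48.3% in the small intestine, several times the share of the fibroblast markers there. Without the LECs rich in fibroblast markers it was at 68.5 and 72.1 CPM, so most of the Mmp14 level in lymphatic cells remained. In the BEC label the colon level fell to 18.7 CPM without 3 of the 53 cells, beside 18.0 CPM in the small intestine. In the SMC label, leaving out such cells lowered Mmp14 from 131 to 83.4 CPM (colon) and from 115 to 56.2 CPM (small intestine). SMCs of the small intestine then stood below LECs, so the order of these labels shared by the tissues did not hold in that setting.

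At least 1 Mmp14 UMI was present in 77.1% of colon fibroblasts and 61.5% of small intestinal fibroblasts, and in 40.7% and 26.5% after thinning. In LECs the shares were 30.4% and 24.6%, or 11.98% and 12.5% after thinning.

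Timp1 was the scarcest of the 5 genes in every fibroblast subtype, and the place of its peak differed between the tissues. In the colon, SEMFs were highest with 57.0 CPM (51.7 to 62.7), followed by CD81- FBs with 39.4 and trophocytes with 37.4, whose intervals overlapped. In the small intestine, trophocytes were highest with 57.6 CPM (53.8 to 61.5), followed by CD81- FBs with 39.8 and SEMFs with 25.9. SEMFs thus went from the first fibroblast subtype to the last, while CD81- FBs stood at almost the same level in both.

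Outside fibroblasts, Timp1 was near the limit of detection. LECs had 8 UMIs in the colon and 47 in the small intestine, BECs had 3 and 19, and SMCs had 4 and 44. Their levels were between 4.19 and 15.7 CPM, with wide intervals, such as 2.29 to 32.5 CPM for colon BECs. Fibroblasts held 99.0% and 94.2% of the Timp1 UMIs and were 93.2% and 62.5% of the cells. At least 1 Timp1 UMI was found in 22.2% of colon and 22.9% of small intestinal fibroblasts (7.57% and 7.63% after thinning), against 3.23% and 1.68% of LECs.

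Timp2, the inhibitor that also serves in MMP2 activation, was abundant in every type but BECs. Trophocytes were highest in both tissues, with 1118 CPM in the colon (1092 to 1144) and 873 in the small intestine (858 to 888). CD81- FBs had 709 and 589 CPM, SEMFs 523 and 464, and SMCs 555 and 466. LECs ranked second in the colon with 878 CPM and the third in the small intestine with 473. BECs were lowest, with 204 and 99.9 CPM.

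Among the 5 genes Timp2 was found in the most fibroblasts, 94.6% in the colon and 93.9% in the small intestine (72.5% and 69.4% after thinning). In LECs, 97.7% and 81.1% of cells had a UMI. Timp2 in LECs was at 119% of the fibroblast level in the colon and 70.4% in the small intestine, far above the share of the fibroblast markers. Without the LECs rich in those markers it was at 904 and 468 CPM.

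Timp3, the inhibitor that stays in the matrix, was the one member led by endothelium. LECs had 3486 CPM in the colon (3375 to 3600) and 3036 in the small intestine (3004 to 3069). BECs came second with 1042 and 1710 CPM. CD81- FBs had 571 and 570 CPM, SMCs 431 and 753, and trophocytes 359 and 209. SEMFs were lowest with 218 and 107 CPM. No neighbouring intervals overlapped in either tissue, and the highest level was 16.0 times the lowest in the colon and 28.5 times in the small intestine.

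All 217 colon LECs and 99.2% of small intestinal LECs had a Timp3 UMI, and 99.5% and 97.8% did after thinning. Of all Timp3 UMIs, LECs held 16.6% in the colon library and 61.4% in the small intestinal library, in which they were 3.61% and 26.7% of the sorted cells. Over all cells Timp3 therefore stood at 551 CPM (colon) and 953 CPM (small intestine), the opposite order to that in pooled fibroblasts (468 and 368 CPM).

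**Figure D1:**
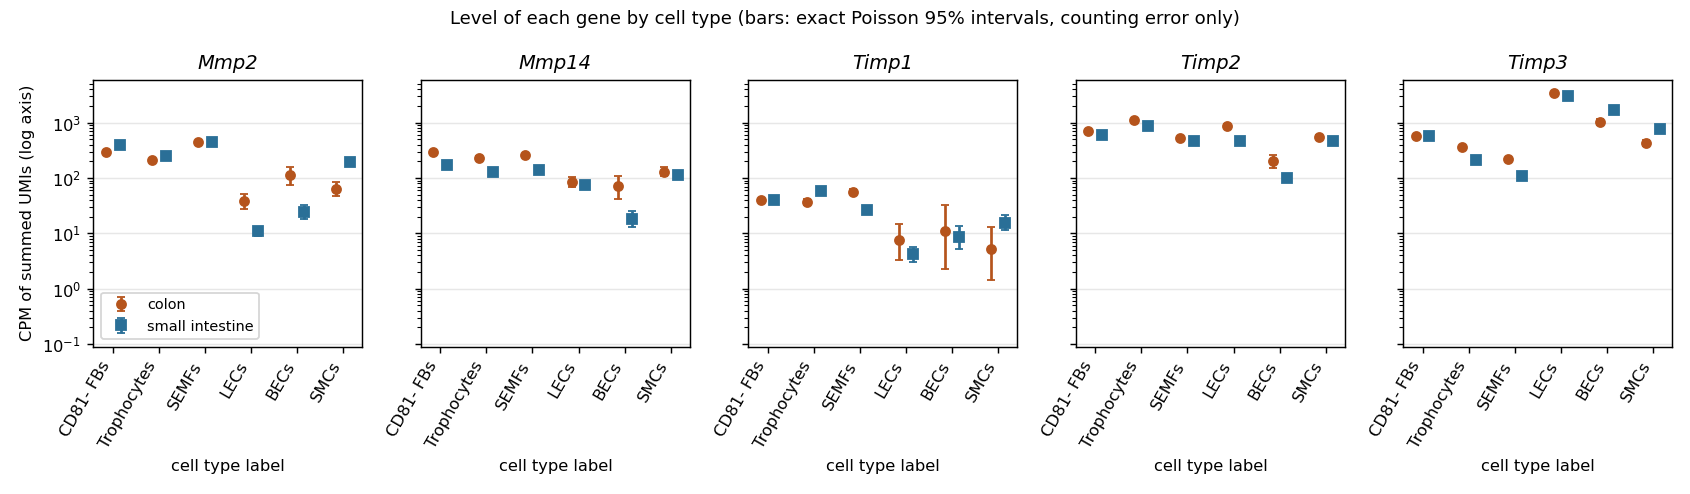
Level of the 5 genes in CPM of summed UMIs (log axis) for the 6 cell labels (x axis), with circles for the colon, squares for the small intestine and bars for exact Poisson 95% intervals. Timp3 peaks in LECs (3486 and 3036 CPM), whereas Mmp2 peaks in SEMFs (440 and 454 CPM).

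Timp3 was spread unevenly among CD81- FBs, and more so in the small intestine. The level was the same in both tissues (571 and 570 CPM), yet a UMI was found in 82.4% of these cells in the colon and in 64.0% in the small intestine. After thinning, the shares were 54.3% and 45.0%, and the tenth of cells with the most Timp3 held 40.3% and 50.6% of its UMIs. The variance over the mean of thinned counts was 1.98 in the colon and 3.33 in the small intestine, where 1 corresponds to counting noise alone. For Mmp2 in the same cells it was 1.10 and 1.16, for Mmp14 1.18 and 1.05 and for Timp2 1.18 and 1.15. At equal mean level, Timp3 was thus held by fewer small intestinal cells with more UMIs each.

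Syn3, within which Timp3 lies on the opposite strand, followed it across the types. Syn3 gave between 3.02 and 6.78 UMIs per 100 Timp3 UMIs in each of the 12 combinations of type and tissue. Its level was 131 CPM in colon LECs and 105 in small intestinal LECs, but 14.8 and 4.60 CPM in SEMFs. After thinning, a Syn3 UMI was found in 6.60% of the colon CD81- FBs with Timp3 and in 2.37% of those without, and in 5.14% and 0.984% in the small intestine. How many of the Syn3 UMIs were reads of the Timp3 locus was not tested.

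**Figure D2:**
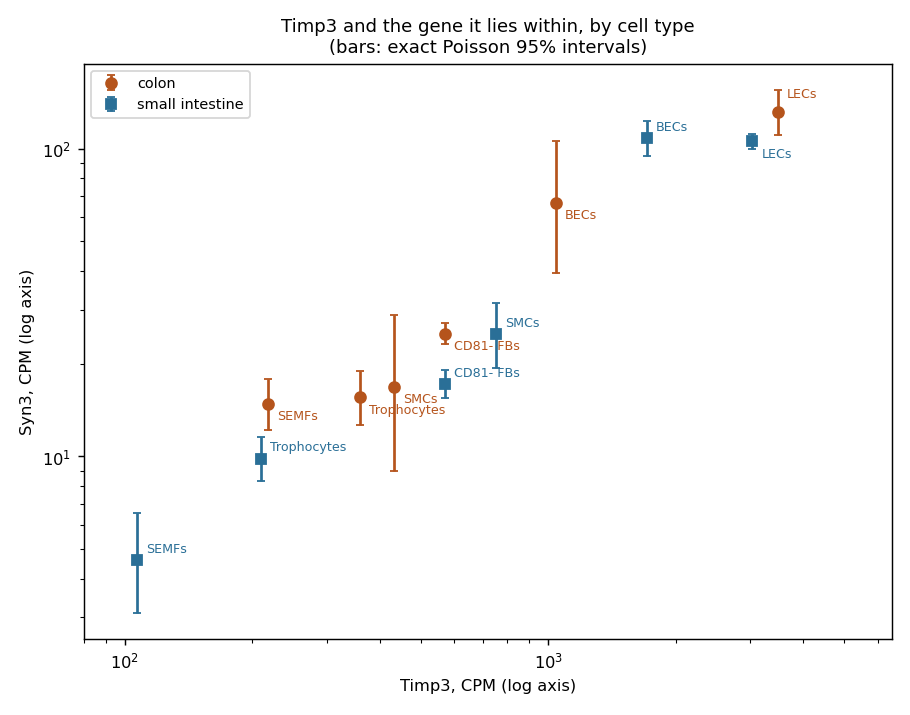
Level of Syn3 (y axis, CPM, log axis, bars for exact Poisson 95% intervals) against that of Timp3 (x axis, CPM, log axis), 1 point per cell label and tissue. The points run from small intestinal SEMFs (107 CPM of Timp3, 4.60 of Syn3) to colon LECs (3486 and 131 CPM).

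The tissue ratio of each gene was taken as the log2 of colon over small intestinal CPM, and a ratio beyond 1 either way, which is a 2-fold difference, was counted. None of the 5 genes passed that limit in pooled fibroblasts, where 16.4% of 13307 genes with at least 100 UMIs did (6.88% higher in the colon, 9.47% higher in the small intestine). None passed it in CD81- FBs, against a background of 16.8% (6.46% and 10.4%), or in trophocytes, against 12.5% (4.23% and 8.24%). In SEMFs 2 of 5 were beyond 1, both higher in the colon, where 20.5% of all genes tested were (5.36% higher in the colon and 15.1% in the small intestine). The median ratio of all tested genes lay between -0.33 and -0.11 in the 6 types and at -0.17 in pooled fibroblasts, so ratios near 0 are slightly above that of the median gene.

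With lower counts, 1 of the 4 genes tested in LECs was beyond 1, Mmp2, higher in the colon (background 18.8%; 3.45% higher in the colon, 15.4% in the small intestine). In BECs it was 1 of 2, Timp2, higher in the colon (22.7%; 3.1% and 19.6%). In SMCs it was 1 of 4, Mmp2, higher in the small intestine (20.7%; 3.37% and 17.3%). All 3 fell below 1 in size or changed sign without the cells rich in fibroblast markers.

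Mmp14 had the most even tissue ratio across fibroblasts. Its level of 275 CPM in colon and 153 CPM in small intestinal fibroblasts gave a log2 ratio of 0.85 (exact conditional binomial 95% interval 0.80 to 0.89), or 1.02 with the median gene set to 0. By subtype it was 0.74 in CD81- FBs, 0.86 in trophocytes and 0.86 in SEMFs. In LECs (0.23, -0.10 to 0.54) and SMCs (0.18, -0.16 to 0.51) the interval held 0. The colon library held fibroblasts with Y-linked and no Xist UMIs (1637 cells) and with Xist and no Y-linked UMIs (2541 cells). Mmp14 was at 296 CPM in the former and 254 CPM in the latter, both above the small intestinal level. Here and below, these classes share 1 library and 1 digestion and are not replicates, and small intestinal cells were not split.

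Mmp2 leaned the other way in fibroblasts, and only slightly. The levels of 308 and 350 CPM gave a log2 ratio of -0.19 (-0.22 to -0.15), close to that of the median gene (-0.01 relative to it). It was -0.43 in CD81- FBs, -0.22 in trophocytes and -0.04 in SEMFs, where the interval held 0. As a result, Mmp14 had 0.893 UMIs per Mmp2 UMI in colon fibroblasts and 0.436 in small intestinal fibroblasts. In LECs the Mmp2 ratio was 1.81 (1.26 to 2.33), from 41 and 123 UMIs. Without the LECs rich in fibroblast markers it was 0.91, and with the 6% of cells of top doublet score left out 0.42. In SMCs it was -1.60 (-2.05 to -1.17), and the fibroblast markers in that label had a median ratio of -1.07. Without the SMCs rich in those markers it was -0.67, whereas it was -2.52 with the cells of top doublet score left out.

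Timp1 had a ratio of -0.05 (-0.15 to 0.04) in pooled fibroblasts, a figure that hid opposite subtypes. It was -0.02 in CD81- FBs, -0.62 (-0.84 to -0.41) in trophocytes and 1.14 (0.88 to 1.40) in SEMFs. Colon SEMFs with Y-linked and no Xist UMIs had 53.1 CPM of Timp1, and the reverse class had 58.9 CPM, both above the 25.9 CPM of the small intestine. Immediate early and heat shock genes, which stress and tissue digestion are known to induce, moved with it there. The summed level of 12 such genes (Fos, Fosb, Jun, Junb, Egr1, Atf3, Ier2, Nr4a1, Zfp36, Dusp1, Hspa1a, Hspa1b) in SEMFs was 8706 CPM (colon) and 2748 CPM (small intestine), and 9 of the 12 were beyond 1, all higher in the colon, where 5.36% of all genes tested in SEMFs were.

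In trophocytes, where Timp1 was higher in the small intestine, the 12 genes summed to 23372 CPM (colon) and 24913 CPM (small intestine). In CD81- FBs, where Timp1 was at 39.4 and 39.8 CPM, they summed to 9739 and 7490 CPM. In thinned SEMFs, cells with a Timp1 UMI had a mean of 23.7 UMIs of the 12 genes and cells without had 16.3 in the colon. In the small intestine the means were 5.44 and 5.67. For thinned CD81- FBs with and without a Timp1 UMI they were 17.6 and 19.5 (colon) and 18.1 and 14.8 (small intestine). The Timp1 difference in SEMFs thus stood beside a difference in immediate early and heat shock genes whose part in it was not tested.

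Timp2 differed little between the tissues in fibroblasts, with levels of 741 and 672 CPM and a log2 ratio of 0.14 (0.12 to 0.16). It was 0.27 in CD81- FBs, 0.36 in trophocytes and 0.17 in SEMFs. In LECs it was 0.89 (0.79 to 0.99). In BECs it was 1.03 (0.58 to 1.46), from 55 UMIs in the colon, of which 45 came from the 4 cells that also held all the Mmp2 UMIs. Without the 3 BECs of the colon and the 3 of the small intestine that were rich in fibroblast markers, the ratio in BECs was -1.02.

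Timp3 was unequal across types. Its ratio was 0.00 (-0.03 to 0.04) in CD81- FBs, 0.78 (0.70 to 0.85) in trophocytes and 1.03 (0.90 to 1.16) in SEMFs, so that the pooled ratio of 0.35 covered 3 different values. In LECs it was 0.20 (0.15 to 0.25), whereas in BECs (-0.71, -0.89 to -0.54) and SMCs (-0.80, -0.98 to -0.64) the small intestine was higher. The same classes of colon SEMFs had 217 CPM (Y-linked UMIs) and 222 CPM (Xist UMIs) of Timp3, against 107 CPM in the small intestine. Summed markers of other types were higher in SEMFs of the small intestine. They were at 93.5 CPM (colon) and 656 CPM (small intestine) for 4 pericyte markers and 17.3 and 398 CPM for 5 immune markers. For 6 smooth muscle markers they were at 2628 and 4896 CPM. The median immune marker was at 0.672 and 2.91 CPM and the median smooth muscle marker at 39.7 and 133 CPM. Few genes thus carried most of the immune and smooth muscle sums. In CD81- FBs the pericyte markers summed to 56.2 CPM (colon) and 822 CPM (small intestine), with a median marker at 11.2 and 21.4 CPM. The smooth muscle markers summed there to 141 and 658 CPM, and the immune markers, higher in the colon, to 88.6 and 62.5 CPM. In BECs, 6 lymphatic markers summed to 29.7 CPM (colon) and 1265 CPM (small intestine), all 6 beyond 1, and in SMCs the pericyte markers summed to 554 and 1262 CPM. Whether these markers came from cells of other types was not tested. Nor was their part in the Timp1 and Timp3 ratios or in the spread of Timp3 among CD81- FBs.

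**Figure D3:**
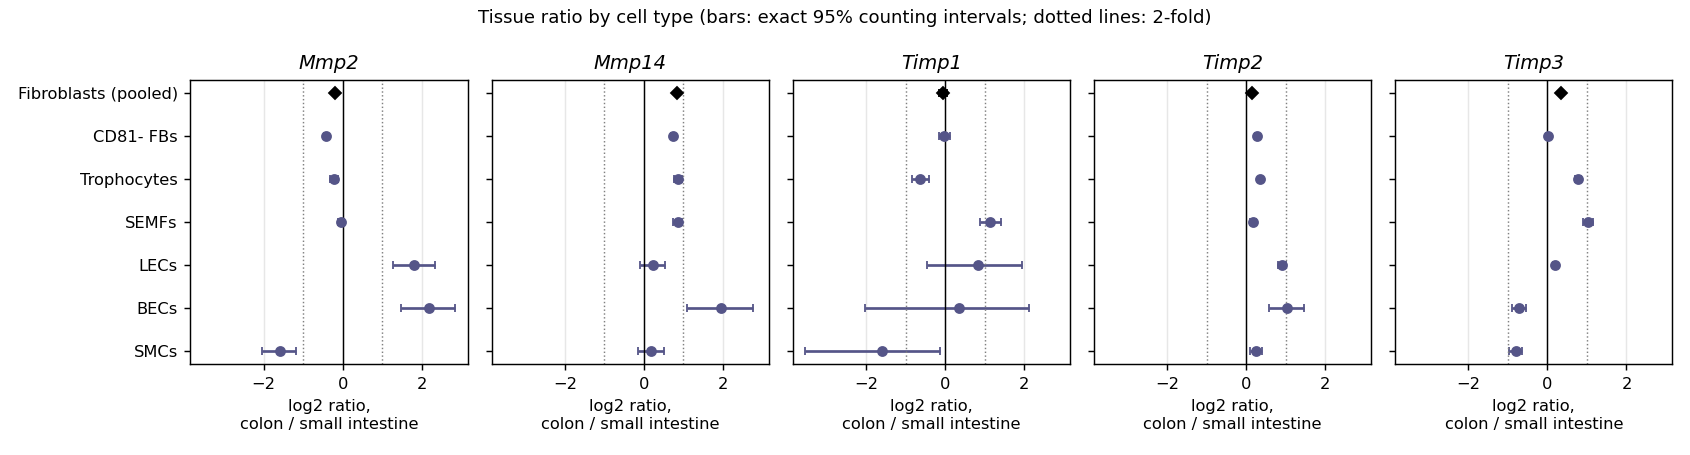
Log2 ratio of colon to small intestine (x axis) for each gene, with 1 point per cell label and a diamond for pooled fibroblasts, exact 95% counting intervals as bars and dotted lines at 2-fold. Mmp14 lies between 0.74 and 0.86 in the 3 fibroblast subtypes, while Timp1 ranges from -0.62 (trophocytes) to 1.14 (SEMFs); Mmp2, Mmp14 and Timp1 in BECs and Timp1 in LECs and SMCs rest on under 100 UMIs.

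The balance of inhibitor and protease RNA was set out as UMIs of the 3 Timp genes per UMI of the 2 Mmp genes. Counts from 3′ ends are not scaled by transcript length, but capture may differ between genes, so the figure is best compared between types. In pooled fibroblasts it was 2.15 (2.12 to 2.18) in the colon and 2.16 (2.12 to 2.19) in the small intestine. Trophocytes had 3.40 and 3.04 and CD81- FBs 2.26 and 2.11. SEMFs had the least inhibitor RNA per protease RNA of the 6 types, 1.14 (1.10 to 1.19) in the colon and 1.00 (0.96 to 1.05) in the small intestine.

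Endothelium stood at the other end, with 35.0 and 41.5 Timp UMIs per Mmp UMI in LECs and 6.92 and 42.4 in BECs. Timp3 made up 79.8% and 86.4% of the Timp UMIs in LECs, but 23.7% and 18.4% in trophocytes, where Timp2 made up 73.8% and 76.6%. Without Timp3 the figure was 7.09 and 5.63 in LECs and 1.35 and 1.42 in pooled fibroblasts. The BEC figure of the colon rests on 49 Mmp UMIs, most of them from the 4 cells with fibroblast RNA (30 Mmp2 and 15 Mmp14 UMIs).

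**Figure D4:**
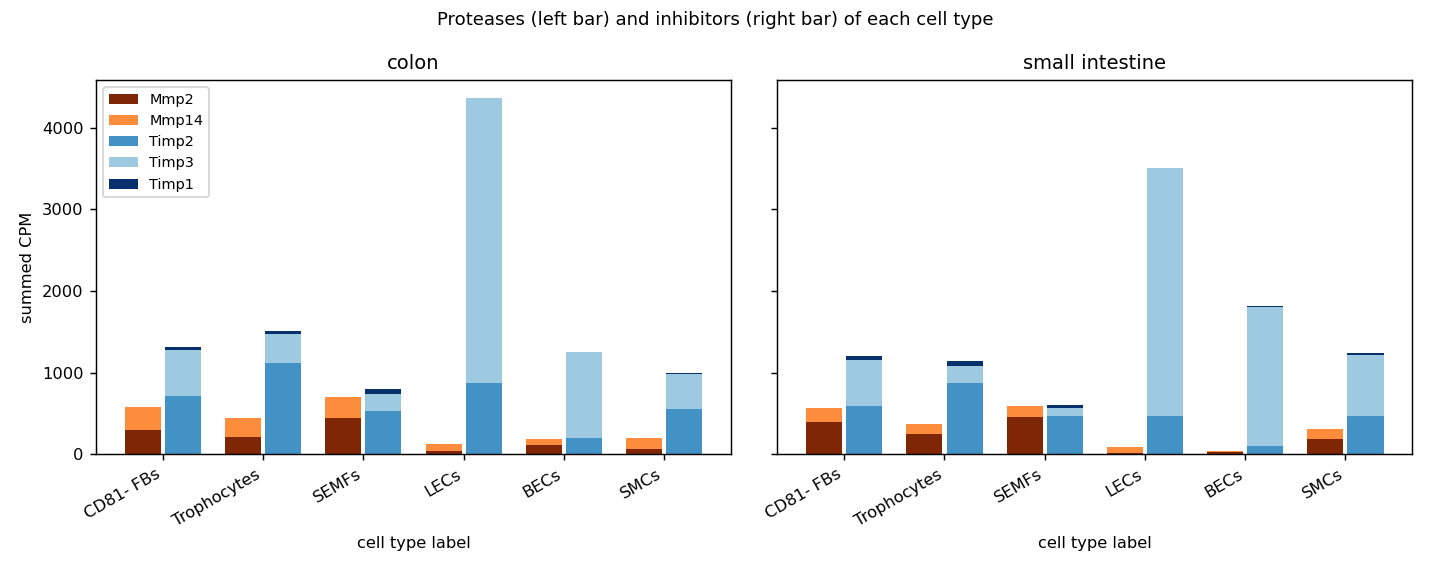
Summed CPM (y axis, from 0) of the 2 proteases (left bar of each pair) and the 3 inhibitors (right bar) in the 6 cell labels, colon on the left and small intestine on the right. The bars of SEMFs are nearly equal (1.14 and 1.00 Timp UMIs per Mmp UMI), and those of LECs are dominated by Timp3.

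MMP14, TIMP2 and the MMP2 precursor act as 1 complex on a cell surface, and UMIs of all 3 genes were found together in 60.1% of colon fibroblasts (58.8 to 61.4) and 50.9% of small intestinal fibroblasts (49.6 to 52.2). The product of the separate shares was 58.1% and 48.7%, so the genes were found together about as often as their own shares give. After thinning, the shares were 13.3% and 8.97%, beside products of 12.9% and 8.82%. By subtype they were 62.0% and 56.2% in CD81- FBs, 51.7% and 49.0% in trophocytes and 60.5% and 40.8% in SEMFs. In LECs the shares were 5.07% and 1.12%, and 0% and 0.534% with the 6% of top doublet score left out. The genes did not mark separate fibroblasts. In thinned cells, Mmp14 was found in 41.1% of Mmp2-positive and 40.3% of Mmp2-negative colon fibroblasts, and in 27.1% and 25.9% in the small intestine.

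The genes most alike in pattern were those with the highest Pearson r of log2(CPM + 10) over the 12 combinations of type and tissue, among 11862 genes. The 12 points share 2 libraries and their depths, so r is a description. For Mmp2 they were Clmp (r = 0.976), Armcx2 (0.970) and Scarf2 (0.970), and for Mmp14 Cd63 (0.956), Npr2 (0.945) and Tmed1 (0.941). Cd63 encodes a membrane protein known as a TIMP1 receptor. For Timp1 they were Bri3bp (0.936), Hpgd (0.927) and Surf4 (0.926), for Timp2 Trpc1 (0.932), Crat (0.906) and Itsn1 (0.898), and for Timp3 Syn3 (0.959), Dock9 (0.954) and Cavin2 (0.936). Between the members, Mmp2 was most like Timp1 (0.863) and ran opposite to Timp3 (-0.836).

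Of 21 other metalloproteinases listed, 12 were in both tissues and 9 had at least 100 UMIs in pooled fibroblasts. Beyond 1 were 2 in favour of the colon (background 6.88%) and 5 in favour of the small intestine (background 9.47%). Mmp10 (stromelysin-2) was at 10.3 CPM in the colon and 136 in the small intestine (-3.73), and in CD81- FBs at 5.22 and 261 CPM (-5.64). Mmp3 (stromelysin-1) was at 22.6 and 97.7 CPM (-2.11) and Mmp16 (MT3-MMP) at 33.6 and 127 CPM (-1.92). The other 2 higher in the small intestine were scarce, Mmp17 at 1.95 and 4.24 CPM and Mmp27 at 0.623 and 2.40 CPM.

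Mmp11 (stromelysin-3) was higher in the colon, at 51.2 and 20.8 CPM (1.30), as was the scarce Mmp28, at 2.16 and 0.863 CPM. Mmp23 lay within 1, at 94.5 and 142 CPM (-0.58). The median log2 ratio of the 9 genes was -1.12, beside -0.17 for all genes tested.

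Of 9 other inhibitors and regulators, 6 were tested in pooled fibroblasts, and 2 were beyond 1 in each direction, against the same background of 6.88% and 9.47%. Thbs2, which promotes clearance of MMP2, was at 101 and 50.2 CPM (1.01), and the difference was in trophocytes (240 and 45.8 CPM, 2.39) and SEMFs (121 and 42.5 CPM, 1.51) rather than in CD81- FBs (0.08). Spock2 (-2.17), Tfpi2 (-1.50) and Spock3 (1.28) were each under 20 CPM. Thbs1, at 234 and 202 CPM (0.21), and Reck, a membrane-anchored inhibitor, at 49.2 and 78.8 CPM (-0.68), lay within 1.

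**Figure D5:**
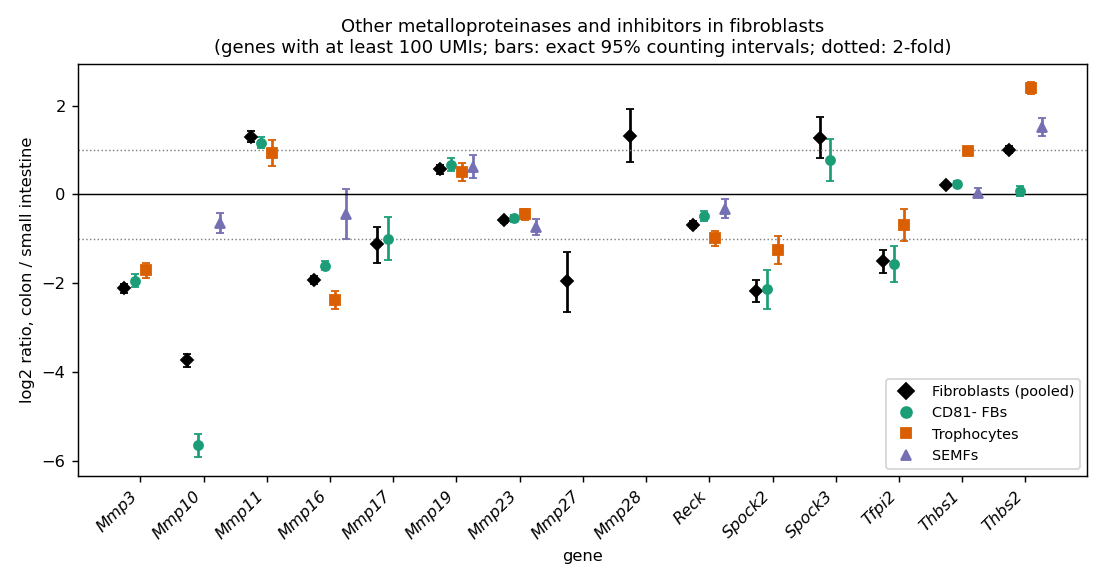
Log2 ratio of colon to small intestine (y axis) of other metalloproteinases and inhibitors (x axis) with at least 100 UMIs, for pooled fibroblasts and the 3 subtypes, with exact 95% counting intervals and dotted lines at 2-fold. Mmp10 in CD81- FBs lies lowest at -5.64 and Thbs2 in trophocytes highest at 2.39.

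All 12 genes of MMP activation, induction and clearance were tested in pooled fibroblasts, of which 2 were higher in the colon and 1 in the small intestine beyond 1 (background 6.88% and 9.47%). Plau, which encodes urokinase, the protease that turns plasminogen into the metalloproteinase activator plasmin, was at 17.9 and 1.01 CPM (4.15), most of it in SEMFs (72.1 and 2.91 CPM), and its receptor gene Plaur at 18.9 and 8.73 CPM (1.11). Pcsk5, a proprotein convertase, was at 388 and 904 CPM (-1.22). The convertase Pcsk6 (0.66), the plasminogen activator gene Plat (0.24) and Serpine2 (-0.25), whose product inhibits plasminogen activators, lay within 1, as did Bsg (-0.40), whose product EMMPRIN induces MMPs, the clearance receptor Lrp1 (-0.49) and Cd44 (0.75), whose product docks MMP14. In SEMFs, Cd44 was at 348 and 88.5 CPM (1.97).

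None of 8 tested TIMP receptors and TIMP3 targets was beyond 1 in pooled fibroblasts, where 16.4% of all genes were. Cd63 was at 1387 and 1036 CPM (0.42), Itgb1 at 560 and 490 CPM (0.19), Efemp1, whose product binds TIMP3, at 514 and 553 CPM (-0.11), Adam10 at 54.6 and 91.9 CPM (-0.75), and the aggrecanases Adamts4 (-0.17) and Adamts5 (0.00) at under 100 CPM. Subtypes differed more, since Adamts5 was at 247 and 68.9 CPM in trophocytes (1.84) and 46.1 and 119 CPM in SEMFs (-1.37). Kdr was measured at 624 and 815 CPM in LECs and 920 and 441 CPM in BECs, the types with the most Timp3.

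Of 10 substrate genes, 2 were beyond 1 in pooled fibroblasts, both higher in the small intestine, where the background was 9.47%. They were the collagen I genes Col1a1 (1504 and 3426 CPM, -1.19) and Col1a2 (1886 and 3852 CPM, -1.03). Col3a1 (-0.32), the basement membrane genes Col4a1 (0.02), Col4a2 (0.02), Lama4 (-0.93) and Lamc1 (-0.18), and Fn1 (0.03), Dcn (-0.90) and Fbln5 (0.05) lay within 1. Of the 12 immediate early and heat shock genes, Fosb (-1.10) and Zfp36 (-1.41) were beyond 1 in pooled fibroblasts, both higher in the small intestine, where the background was again 9.47%. The other 10 lay within 1, including Fos (-0.26), Jun (0.06), Junb (0.20), Egr1 (-0.65), Atf3 (-0.13), Ier2 (-0.93), Nr4a1 (0.12), Dusp1 (0.05), Hspa1a (0.69) and Hspa1b (0.06).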

How the data were processed

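Droplet libraries, 1 of colon and 1 of small intestine, were analysed. Per the submitters' processing notes, Cell Ranger 7.1.0, Seurat 4 and the mouse build mm10 were used. The authors deposited a table of UMI counts per gene and cell, a table of natural log values, which equalled ln(1 + 10000 × UMIs / UMIs of the cell), and a cell label per cell. The filters behind the deposited cells and whether doublets were removed are not given in the sources used here.

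Groups followed the tissue labels. The colon's capillary, arterial and venous labels were pooled as BECs, and the 3 fibroblast subtypes as fibroblasts. UMIs were summed per type and given as CPM. With 1 library per tissue no test between groups was made. Genes reaching 100 UMIs summed over both tissues were tested for a ratio beyond 1 (log2), and a count of 0 was replaced by 3 counts. Intervals were exact at 95% (scipy 1.17.1) and were checked on simulated counts. Scrublet in scanpy 1.11.5 gave doublet scores. Doublets stayed in the main values, and leaving out the top 6% of cells (361 and 562) was an alternative. Other alternatives changed the denominator, the cell weighting, the scale, the depth (2000 UMIs per cell), the colon cells, the centring, the single highest cell and the minimum on UMIs.

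All 5 members were named in every type. Of the listed genes, those with at least 100 CPM in a compared type, or beyond 1 in fibroblasts, were named, and per member the 3 genes most alike. Of these, 1 gene is not reported here. The members and lists were chosen with earlier results of these data known.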

Additional observations from a re-analysis of the deposited data

Results flagged for a closer look

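For 3 genes the tissue ratios had opposite signs in 2 cell types, and none of these differences between types was tested. For Mmp2 the log2 ratio of colon to small intestine was 2.18 in BECs and -1.60 in SMCs, a difference of 3.77. The BEC ratio came from 30 colon and 54 small intestinal UMIs, under the minimum of 100. Both labels held cells rich in fibroblast markers. Without those cells Mmp2 was lower in the colon than in the small intestine in both labels. It was then at 4.67 and 16.1 CPM in BECs and at 25.0 and 39.7 CPM in SMCs. For Timp1 it was 1.14 in SEMFs and -1.60 in SMCs, a difference of 2.74, with 4 UMIs in colon SMCs. For Timp3 it was 1.03 in SEMFs and -0.80 in SMCs, a difference of 1.84, from 333 UMIs in colon and 2114 UMIs in small intestinal SMCs.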

How the results depend on the processing

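In pooled fibroblasts no other setting tried reversed the sign of the tissue ratio of Mmp2, Mmp14, Timp2 or Timp3. Relative to the median gene the log2 ratios were -0.0114 (Mmp2), 1.02 (Mmp14, now beyond 1), 0.12 (Timp1), 0.32 (Timp2) and 0.52 (Timp3). With only Y-linked colon cells they were -0.22, 0.96, -0.18, 0.19 and 0.22, and with only Xist colon cells 0.73 (Mmp14), 0.0713 (Timp1), 0.10 (Timp2) and 0.45 (Timp3). Totals without mitochondrial and ribosomal protein genes gave -0.14 (Mmp2), 0.18 (Timp2) and 0.39 (Timp3), the mean of per-cell CPM gave -0.24 (Mmp2), thinning gave 0.39 (Timp3), and equal weight of the 3 subtypes gave 0.12 (Timp1) and 0.29 (Timp2). As a difference of mean natural log values, which is another scale, they were -0.13 (Mmp2), 0.36 (Mmp14), 0.0838 (Timp2) and 0.40 (Timp3). Timp1 lay near 0 and its sign varied.

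Among ratios beyond 1, the sign changed 6 times, each time in BECs: Mmp2 at -0.49 with only Y-linked colon cells and -1.79 without the cells rich in fibroblast markers, Mmp14 at -0.93 after thinning, and Timp2 at -0.0216 (natural log difference), -1.51 (only Y-linked) and -1.02 (without the marker-rich cells). Mmp2 in BECs was 1.47 without its highest cell. Ratios whose interval held 0 also changed sign: Mmp14 in LECs (-0.49 to -0.0686 in 4 settings), Mmp14 in SMCs (-0.13 after thinning), Mmp2 in SEMFs (up to 0.29), Timp3 in CD81- FBs, and Timp1 in CD81- FBs and BECs. The cause of these changes was not tested. The share of fibroblasts with Mmp2, Mmp14 and Timp2 was 13.3% and 8.97% after thinning. Timp UMIs per Mmp UMI in fibroblasts were 1.35 and 1.42 without Timp3, and 2.04 in the small intestine by per-cell means. With no minimum on UMIs, 4 other metalloproteinases instead of 2 were higher in the colon, and 1 TIMP receptor or target instead of 0 in the small intestine. The leading type did not change in any of 80 orders of types checked across genes, tissues and settings. No ratio was formed where a setting left no UMI, as for Timp1 in thinned colon BECs. No paired analysis was possible because each tissue had 1 library. Depth limits Timp1 outside fibroblasts and all genes in the 53 colon BECs.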

Other observations

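In a comparison chosen after the Timp3 values were seen, CD81- FBs with at least 3 thinned Timp3 UMIs were set beside those with 0 (506 and 1643 colon cells, 390 and 1524 small intestinal cells). Mfap5, which encodes a microfibril protein, was higher in the Timp3-rich cells of both tissues, at 548 against 149 CPM (colon) and 908 against 158 CPM (small intestine). In the small intestine Col8a1 (182 against 31.5 CPM), Igfbp6 (205 against 39.4 CPM), Pcolce2 (169 against 40.0 CPM) and Gfpt2 (231 against 60.0 CPM) followed. In the colon the others of the 5 with the largest difference were Stmn2 (366 against 88.3 CPM), Scara5 (86.0 against 16.4 CPM), Syn3 (61.3 against 12.5 CPM) and Pianp (81.0 against 25.0 CPM).

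The chemokine gene Cxcl13 was lower in the Timp3-rich cells of both tissues, at 292 against 1085 CPM (colon) and 14.1 against 178 CPM (small intestine). In the small intestine Mmp10 was at 47.4 against 448 CPM and Nrg1 at 2.56 against 108 CPM. These are values of 1 library each, with no test.

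Labels with under 50 cells were left out of the comparisons. The 8 colon pericytes held 49 Timp3 UMIs (1413 CPM, 1045 to 1868), 5 Mmp2, 7 Mmp14 and 4 Timp2 UMIs. The 24 proliferating cells of the small intestine had 747 CPM of Timp3 and 342 CPM of Timp2.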
